A study of Mus musculus with 9 samples.

Results

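Integrins are surface receptors made of 1 alpha and 1 beta chain, and T cells use them to leave the blood, to hold on to antigen-presenting and target cells, and to stay in tissue. A beta chain can pair with several alpha chains, and the pair sets the ligand. The integrin genes described here are 10 of the 55471 gene identifiers in the count files, chosen by name as the integrin subunits that effector CD8 T cells are known to use: Itgal, Itgam, Itgax and their partner Itgb2, then Itga4, Itgae and Itgb7, then Itga1, Itgav and Itgb1. All 10 were found in the annotation and all 10 passed the filter on low counts. RNA counts do not measure the receptors at the surface.

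RNA was sequenced from mouse CD8+ T cells that carry OT-I, a transgenic receptor for an ovalbumin peptide. The control group (Bdh1-WT;shCtrl, n = 4) had an intact Bdh1 gene and a short hairpin RNA against firefly luciferase. The DKO group (Bdh1-KO;shOxct1, n = 5) lacked Bdh1 and carried a hairpin against Oxct1, which lowers the transcript and does not delete the gene, and both genes encode enzymes that break down ketone bodies. Cells of both groups were stimulated in culture with antibodies and IL2, transduced, sorted on the Ametrine reporter and transferred into naive C57BL/6 hosts (CD45.1) that received LmOVA, an ovalbumin-expressing Listeria, 1 day later; on day 7 of infection they were sorted by CD45.2 and Ametrine, and the labels name no organ. The labels give no age or sex of the mice and do not say whether replicates came from separate donors or hosts, so p-values measure the spread between these libraries, which may be partly technical.

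Both targeted genes were low in the libraries labelled DKO. In CPM, which is a gene's share of all counts in genes scaled to 1e6, Oxct1 ranged from 58.5 to 74.0 over the controls and from 4.60 to 5.53 over the DKO libraries. For Bdh1, which is not silent by count in DKO, the means were 30.6 ± 3.71 and 10.6 ± 1.21 CPM (SD, n = 4 and 5). Each library held 45205993 to 59853080 counts in genes. The defining CD8 T cell markers were high, with a mean Cd8a of 723 CPM over controls and 713 CPM over DKO libraries, while Cd4 averaged 0.172 and 0.343 CPM. Of the 9 genes on the CD8 T cell list, 1 passed the threshold between the groups: Cd8b1, the beta chain of CD8, fell from 2260 to 1690 CPM (log2 difference -0.40; adjusted p by edgeR 0.0428). Of 14918 genes tested between the groups, 422 (2.83%) were past an adjusted p of 0.05 (quasi-likelihood test of edgeR, Benjamini-Hochberg), 1.32% higher and 1.51% lower in DKO.

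Control replicate 1 stood apart from the other libraries, both by gene length and in most of the integrin genes. Relative to the other controls, its median log2 CPM was 0.48 higher over the 1982 tested genes with up to 1000 bases of exon and 0.48 lower over the 622 genes with more than 12000. In the other libraries the same medians lay between -0.14 and 0.20 for the short genes and between -0.08 and 0.30 for the long ones. The 0.30 was that of control replicate 3, and it is taken against a mean that includes control replicate 1. In control replicate 3, Itga4 was at 130% of the mean of control replicates 2 and 4. That library also stood apart on the second principal component of log2 CPM (-70.2, the others from -5.6 to 20.2). A fit without both libraries is therefore also given. In control replicate 1, 16.7% of reads were unmapped. Its CPM was 52.3% of the mean of the other controls for Itgal, 50.0% for Itgam, 57.1% for Itgax, 50.3% for Itga4, 65.3% for Itga1, 63.8% for Itgav, 75.8% for Itgb1 and 85.4% for Itgb2. Itgb7 (105%) and Itgae (115%) were not low there. Its median was -0.17 over genes with 4000 to 6000 bases of exon, which include Itgam and Itgax, and -0.30 over those with 6000 to 8000, which include Itgal, so these 3 genes were further below the other controls than the median gene of their length. The cause was not tested. Results are given with and without this library. It was singled out partly by the integrin genes themselves. Leaving it out raises the control mean of those that were low there, so their results without it are partly set by that choice.

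**Figure D1:**
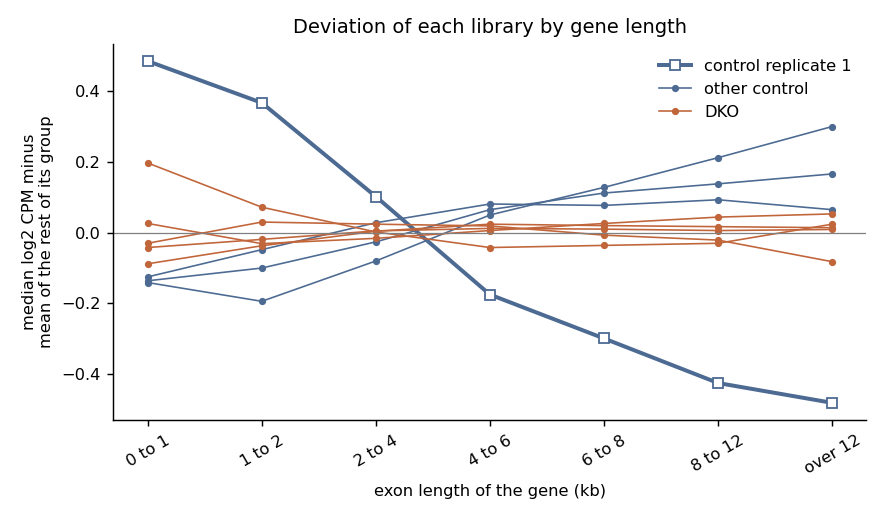
Median log2 CPM of each library minus the mean of the rest of its group (y axis) for tested genes in bins of exon length (x axis, kb), 1 line per library. Control replicate 1 goes from 0.48 in the shortest bin to -0.48 in the longest, while the other lines stay between -0.19 and 0.30.

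Of the 10 integrin genes, 1 passed the threshold over all genes, against 2.83% of all tested genes. This was Itgae, which was lower in DKO. In bulk RNA, fewer cells of a type and less RNA per cell cannot be told apart. With Itgae counted, 4 of the 10 had an unadjusted p under 0.05 in edgeR (the others were Itgam, Itgb7 and Itgav), where 16% of all genes did. The median log2 fold change of the 10 genes was 0.05, beside -0.01 over all tested genes. Without control replicate 1, 4 of the 10 passed (Itgae, Itgam and Itgax lower, Itgb7 higher), against 4.93% of the genes tested in that fit. Itgam and Itgax were low in that library, so leaving it out by itself moves their fold changes down.

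**Figure D2:**
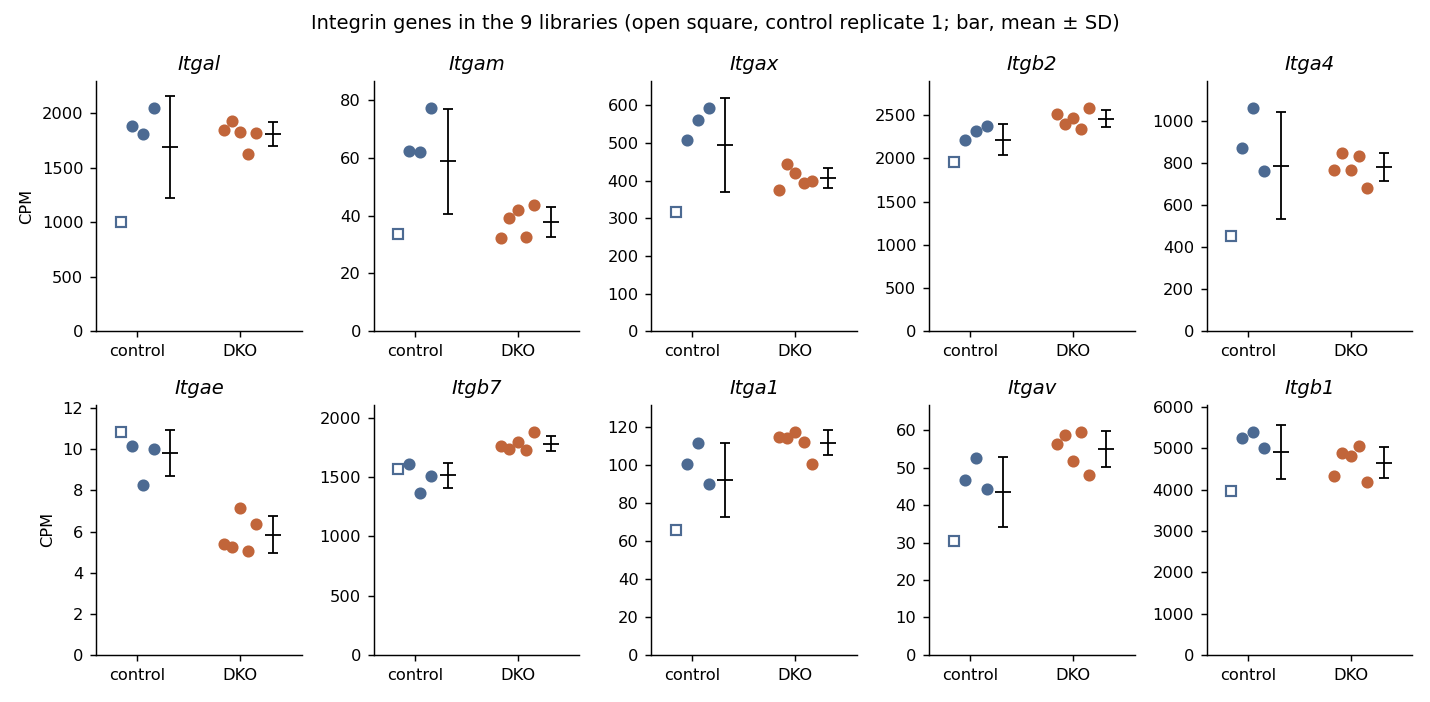
CPM (y axis, from 0) of the 10 integrin genes in control (n = 4) and DKO (n = 5), 1 point per library, with mean and SD to the right of the points. Itgae and Itgb7 do not overlap between the groups; the open square, control replicate 1, is the lowest control point for 8 of the 10 genes.

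Other fits moved these counts. Of the 10 genes, DESeq2 called 3 (7.1% of all genes) and limma-voom 4 (6.68%), against 0 with a replicate block (0.449%). Itgae alone was called with the size factors of DESeq2 in edgeR (2.78%), with no filter on low counts (1.28%), with a stricter one (4.04%) and with both strand columns added (2.88%). Fits without 1 library called 0 without control replicate 2 (2.07%), control replicate 4 (1.23%) and DKO replicates 1 (1.22%), 2 (1.9%) and 4 (1.5%), and only Itgae without control replicate 3 (2.25%) and DKO replicates 3 (1.22%) and 5 (1.54%). Without control replicates 1 and 3 together 3 passed (3.08%), and with a trend on gene length removed 2 did (3.83%).

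**Figure D3:**
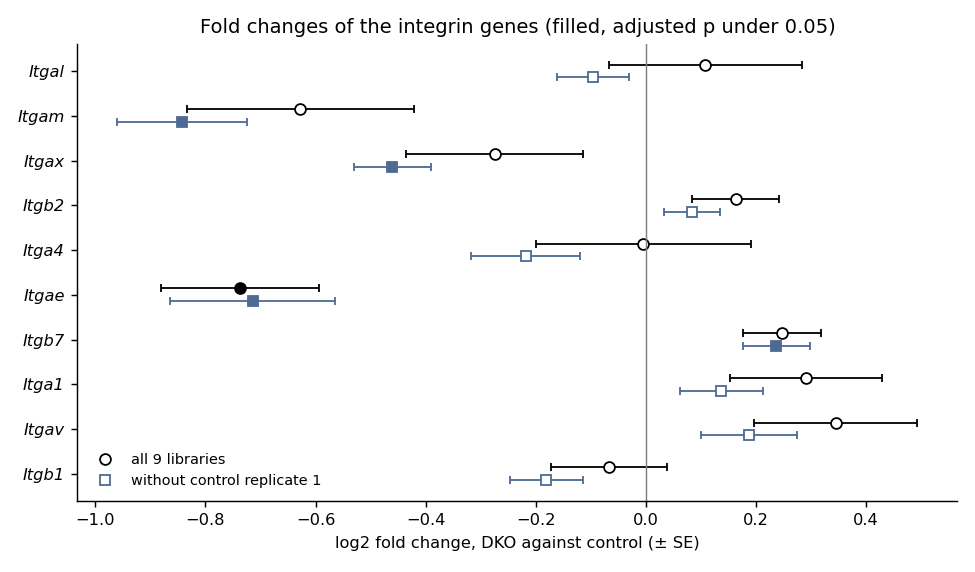
Log2 fold change of DKO against control (x axis) with its SE for each integrin gene, with all 9 libraries (circles) and without control replicate 1 (squares); filled symbols passed an adjusted p of 0.05. Itgam and Itgax are at -0.63 and -0.28 with all libraries and at -0.84 and -0.46 without that library.

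Itgae encodes the alpha chain CD103, which pairs with the Itgb7 chain, binds E-cadherin on epithelial cells and is best known from T cells that settle in epithelium. It is a plus-strand gene at 73090583 to 73147446 of chromosome 11 (GRCm38, also called mm10). Its CPM was 10.9, 10.2, 8.25 and 10.01 in control replicates 1 to 4, and 5.41, 5.26, 7.16, 5.04 and 6.35 in DKO replicates 1 to 5. Every DKO library was below every control library, which was so for 4.36% of all tested genes (8.68% for either direction). Itgae fell from 9.82 ± 1.11 CPM (SD, n = 4) to 5.84 ± 0.889 CPM (SD, n = 5), or 59.5% of control, a log2 difference of -0.74 (SE 0.14, adjusted p 0.0219 in edgeR). It was the least abundant of the 10 genes, with 258 to 583 counts per library. The call rested on most libraries: the adjusted p was 0.0544 without control replicate 2, 0.0639 without control replicate 4, and 0.0693, 0.0537 and 0.0577 without DKO replicates 1, 2 and 4 in edgeR, while the fold change stayed between -0.82 and -0.69.

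Haspin, a kinase gene of mitosis, lies inside Itgae on the opposite strand (73135485 to 73138294). It rose from 35.6 ± 2.34 CPM (SD, n = 4) to 48.6 ± 5.90 CPM (SD, n = 5), a log2 difference of 0.46 (adjusted p 0.0406, edgeR), so the nested gene and its host moved in opposite directions. No exon base of Itgae is shared with another gene, and counting each strand on its own and adding gave 1.01 times its unstranded count. The next gene before Itgae, Ncbp3, was at 59.8 and 63.0 CPM (adjusted p 0.591, edgeR), and the next after it, P2rx5, at 0.192 and 0.104 CPM, too low to be tested. The genes whose log2 CPM varied most like that of Itgae around the group means over the 9 libraries were Ppp3ca (Pearson r 0.95, Spearman rho 0.92), Igkc (0.93 and 0.85) and Kctd13 (0.92 and 0.85). They are the top 3 of all tested genes and are given as a description; none of the 3 passed the threshold between the groups.

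Itgb7 encodes the beta chain shared by the gut-homing receptor, where its partner is Itga4, and by CD103. In control it was at 1568, 1613, 1370 and 1509 CPM, and in DKO at 1760, 1740, 1795, 1731 and 1885 CPM. The groups did not overlap, with every DKO library higher, as for 4.32% of all tested genes. Means were 1515 ± 106 CPM (SD, n = 4) and 1782 ± 62.5 CPM (SD, n = 5), or 118% of control. The log2 difference was 0.25 (SE 0.07), and the adjusted p by edgeR, 0.0941, was short of the threshold. It was 0.0495 without control replicate 1. The 2 genes of the CD103 receptor thus stood on opposite sides of the control level, and only the Itgae value passed with all libraries. The difference between the 2 genes' fold changes was not tested.

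Itga4 encodes the alpha chain that pairs with Itgb1 to bind VCAM-1 on inflamed endothelium and with Itgb7 to bind MAdCAM-1 in the gut. Its CPM was 452, 872, 1062 and 762 in control and 768, 847, 769, 835 and 683 in DKO. The DKO values lay inside the control range. The log2 difference was -0.01 (SE 0.20; adjusted p by edgeR 0.992), and -0.22 (SE 0.10, adjusted p 0.248) without control replicate 1. Of its exon bases, 8.04% are shared with another gene, and adding its counts from each strand gave 1.11 times the unstranded count, so its level is somewhat understated. Cerkl overlaps it on the other strand.

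The 3 alpha chains that pair with Itgb2 followed next. Itgal encodes the alpha chain of LFA-1, the integrin with which T cells grip ICAM on target cells. Itgam (the alpha chain of Mac-1) and Itgax (CD11c) are best known from myeloid cells, and activated CD8 T cells also carry them. All 3 genes lie on the plus strand of chromosome 7, Itgal at 127296260 to 127335138, Itgam at 128062640 to 128118491 and Itgax at 128129547 to 128150657, with 11055 bases between the last pair.

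The stretches before the start sites of Itgam and Itgax, neighbours with a lower mean in DKO, and of Itgb7, with a higher mean, are shown for comparison. None of the 3 genes passed the threshold with all libraries in edgeR. Each is the 250 bases before the RefSeq start (GRCm38.p6), 5′ to 3′ on the gene's strand: chr7:128062390-128062639 (plus), chr7:128129300-128129549 (plus) and chr15:102231936-102232185 (minus). Capitals mark a match, on either strand, to AGGAAG (taken here for ETS factors such as PU.1), TGTGGT (RUNX) or AGGTGTG (T-box).
Itgam: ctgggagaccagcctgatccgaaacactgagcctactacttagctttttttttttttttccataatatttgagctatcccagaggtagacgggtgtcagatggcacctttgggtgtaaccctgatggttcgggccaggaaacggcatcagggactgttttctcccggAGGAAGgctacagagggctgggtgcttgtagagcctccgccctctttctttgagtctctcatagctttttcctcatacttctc
Itgax: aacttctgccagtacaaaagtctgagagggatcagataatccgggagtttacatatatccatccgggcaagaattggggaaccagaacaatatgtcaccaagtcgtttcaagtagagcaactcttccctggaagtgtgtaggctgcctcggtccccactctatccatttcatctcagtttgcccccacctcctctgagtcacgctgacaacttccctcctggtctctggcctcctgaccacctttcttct
Itgb7: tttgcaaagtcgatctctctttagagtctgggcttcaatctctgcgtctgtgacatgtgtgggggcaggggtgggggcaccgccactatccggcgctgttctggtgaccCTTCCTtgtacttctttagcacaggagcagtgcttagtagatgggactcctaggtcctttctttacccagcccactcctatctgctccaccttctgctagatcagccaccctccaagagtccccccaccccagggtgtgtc
No 2 matches overlap. Itgam and Itgb7 each hold 1 match to AGGAAG, and Itgax holds none of the 3 motifs in this window. Shorter or other forms of these sites were not searched, so a missing match does not mean that a site is absent. Of the 10 genes, 7 were in the promoter table (not Itgal, Itgb2 and Itgae). Of these 7, 5 held the ETS motif (Itga1, Itgam, Itgav, Itgb1 and Itgb7), 1 the RUNX motif (Itga4) and 0 the T-box motif. Of all 32851 promoter entries, 29.5% held the ETS motif, 14% the RUNX motif and 5.1% the T-box motif in the same window. A match is a description of letters, not of binding.

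Itgam was at 33.6, 62.4, 62.0 and 77.4 CPM in control and at 32.4, 39.2, 41.8, 32.5 and 43.7 CPM in DKO. Control replicate 1 lay among the DKO libraries, and the other 3 controls lay above all 5 of them. The log2 difference was -0.63 (SE 0.21) with an adjusted p of 0.148 in edgeR over all libraries. Over the 9 fits without 1 library it was -0.84 to -0.46, and Itgam passed in 1 of them. It was weakest without control replicate 4 (adjusted p 0.322, edgeR). Without control replicate 1, Itgam fell to DKO from 67.3 ± 8.75 CPM (SD, n = 3) to 37.9 ± 5.26 CPM (SD, n = 5), a log2 difference of -0.84 (SE 0.12; adjusted p by edgeR 0.00323). Its count is partial. In GENCODE M21 the gene model Gm49368 runs over Itgam on the same strand and shares 68.7% of its exon bases, and reads that fit both genes are counted for neither. Gm49368 itself was at 6.20 ± 1.83 CPM (controls) and 5.09 ± 0.934 CPM (DKO; SD, n = 4 and 5), adjusted p 0.606 in edgeR.

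Itgax was at 316, 508, 560 and 594 CPM in control and at 376, 443, 421, 393 and 400 CPM in DKO. Control replicate 1 was the lowest library of all, and the other 3 controls lay above every DKO library. With all libraries the log2 fold change was -0.28 (SE 0.16; adjusted p by edgeR 0.439). Over the 9 fits without 1 library it was -0.46 to -0.17, and Itgax passed in 1 of them. It was weakest without control replicate 4 (adjusted p 0.666, edgeR). Without control replicate 1, Itgax fell from 554 ± 43.2 CPM (SD, n = 3) to 407 ± 26.3 CPM (SD, n = 5), a log2 difference of -0.46 (SE 0.07; adjusted p by edgeR 0.00462). In that comparison, 3 of the 10 integrin genes (Itgam, Itgax and Itgae) were lower in every DKO library than in every control, where 6.72% of all tested genes were; Itgb7 was higher in every one, where 7.76% of genes were.

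Itgal was at 1004, 1888, 1812 and 2052 CPM in control and at 1851, 1927, 1832, 1632 and 1818 CPM in DKO. Of the DKO values, 4 lay within the range of control replicates 2 to 4 and DKO replicate 4 lay below it. Its log2 difference was 0.11 (SE 0.18; adjusted p by edgeR 0.809), and -0.10 (SE 0.07, adjusted p 0.469) without control replicate 1, so its sign hung on that library. Itgb2, the partner of all 3, was at 1963, 2208, 2312 and 2370 CPM in control and at 2510, 2398, 2467, 2342 and 2585 CPM in DKO. The groups overlapped in 1 pair of libraries, and the log2 fold change was 0.16 (SE 0.08; adjusted p by edgeR 0.344), and 0.08 (SE 0.05, adjusted p 0.405) without control replicate 1.

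The ratio of Itgam or Itgax to Itgal within each library does not depend on the scaling of that library, and control replicate 1 did not stand apart in it. For every 100 CPM of Itgal there were 3.35, 3.31, 3.42 and 3.77 CPM of Itgam in control and 1.75, 2.04, 2.28, 1.99 and 2.40 CPM in DKO. The same ratio for Itgax was 31.5, 26.9, 30.9 and 28.9 in control and 20.3, 23.0, 23.0, 24.1 and 22.0 in DKO. Neither ratio overlapped between the groups with all 9 libraries kept, and the means were 3.46 ± 0.211 and 2.09 ± 0.257 for Itgam and 29.6 ± 2.09 and 22.5 ± 1.42 for Itgax (SD, n = 4 and 5). Of the 10 integrin genes, 3 were lower relative to Itgal in every DKO library (Itgam, Itgax and Itgae), where 3.10% of all tested genes were. Itgal itself, as the divisor, could not be among them. These 3 are also the genes that were lower by CPM without control replicate 1, so this is not a separate result. The ratios were examined as a description, with no test.

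**Figure D4:**
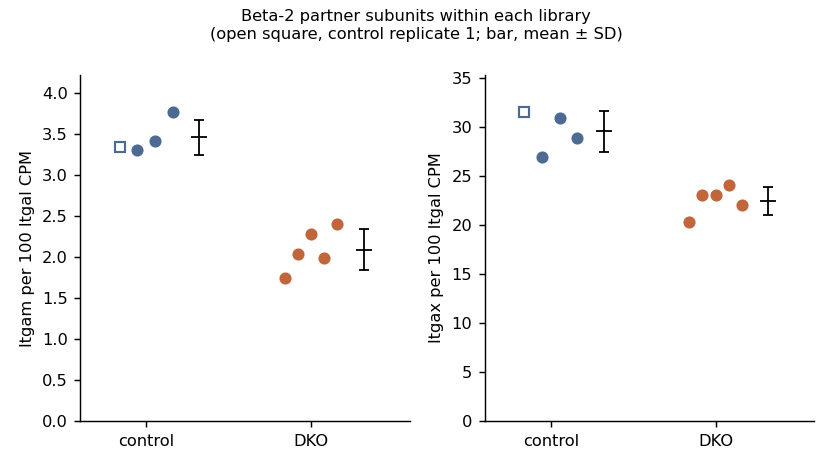
CPM of Itgam (left) and Itgax (right) per 100 CPM of Itgal in the same library (y axes, from 0), 1 point per library, with mean and SD to the right. Control replicate 1 (open square) sits with the other controls, at 3.35 and 31.5, above all 5 DKO libraries.

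Per kilobase of exon, Itgal made up 67.7 to 70.8% of the summed level of the 4 alpha chains that can pair with Itgb2 (Itgal, Itgam, Itgax and Itgad) in control and 73.7 to 76.8% in DKO. The share of Itgax was 26.0 to 29.2% in control and 21.3 to 24.3% in DKO, and that of Itgam was 2.97 to 3.41% and 1.76 to 2.36%. All 3 shares were separate between the groups. As parts of a whole, they follow from the ratios to Itgal given above and are not separate results. Itgad, an alpha chain of tissue macrophages, stayed under 0.15% in both. The Itgam share is too low in both groups by the bases it shares with Gm49368. Between the alpha chains of Itgb7, the share of Itgae was 2.32 to 6.84% in control and 1.81 to 2.76% in DKO, the rest being Itga4, and these ranges overlapped. The 6.84% was that of control replicate 1, where Itga4 was low. Control replicates 2 to 4 were at 3.43, 2.32 and 3.86%, which still overlapped with DKO.

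Itgam and Itgax are also markers of myeloid cells, so the markers of such cells were read in the same libraries. The summed CPM of 11 macrophage and monocyte genes was 110.8 to 136.9 in control and 74.7 to 93.6 in DKO, without overlap. Of the 10 that could be tested, 2 fell: Ctss, a lysosomal protease (81.7 to 51.1 CPM, adjusted p 0.00734, edgeR), and Cd68 (29.3 to 16.7 CPM, adjusted p 0.0138, edgeR). These 2 genes made up most of the sum. The genes that define these cells were low in both groups, with Csf1r at 1.83 and 2.36 CPM, Adgre1 at 1.03 and 1.01 CPM, Cd14 at 0.361 and 0.333 CPM and Clec7a at 0.0262 and 0.246 CPM. Lyz2 was at 2.45 and 5.83 CPM, Mpeg1 at 0.152 and 0.349 CPM and Spi1 at 0.422 and 0.626 CPM, all higher in DKO. Tyrobp was at 3.21 and 2.39 CPM and Cybb at 0.431 and 0.273 CPM. No tested gene of this list other than Ctss and Cd68 passed. The 7 neutrophil genes summed to 0.0853 to 0.177 CPM in control and 0.0630 to 1.18 CPM in DKO. The 8 dendritic cell genes summed to 33.3 to 46.2 CPM in control and 27.6 to 56.4 CPM in DKO, and 5 of them exceeded 1 CPM. Xcr1 led the sum (29.4 and 21.9 CPM). Cd74 (5.9 and 10.5 CPM), H2-Ab1 (2 and 4.2 CPM) and H2-Aa (1.33 and 2.29 CPM) were higher in DKO. None of the 5 tested genes passed, and Clec9a and Siglech had no count in control. The 4 NK cell genes summed to 63.8 to 87.1 and 49.9 to 76.2 CPM, nearly all from Klrb1c, with Ncr1 at 0.0727 and 0.0617 CPM. B cell genes summed to 179 to 261 CPM over controls and 186.5 to 207.8 over DKO (Pax5 had no count), CD4 T cell genes to 30.4 to 39.1 and 34.4 to 46.0, and erythroid and platelet genes to 6.68 to 32.7 and 10.9 to 35.2 (Gp1bb had no count). Their part in the Itgam and Itgax values was not tested.

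The last group holds Itgb1, the beta chain of the receptors for fibronectin, collagen and VCAM-1, with Itga1, the collagen-binding chain of tissue-resident T cells, and Itgav, which binds RGD motifs and helps release active TGF-beta. Itgb1 was at 3957, 5243, 5408 and 5014 CPM in control and at 4323, 4884, 4810, 5051 and 4188 CPM in DKO. The groups overlapped, and the log2 difference was -0.07 (SE 0.11; adjusted p by edgeR 0.802), and -0.18 (SE 0.07, adjusted p 0.149) without control replicate 1. Itga1 was at 65.8, 101, 112 and 89.8 CPM in control and at 115, 114, 118, 112 and 101 CPM in DKO, so that 4 of 5 DKO libraries were above the highest control. Its log2 difference was 0.29 (SE 0.14; adjusted p by edgeR 0.338), and 0.14 (SE 0.08, adjusted p 0.353) without control replicate 1. Itgav was at 30.5, 46.6, 52.7 and 44.2 CPM in control and at 56.3, 58.8, 51.9, 59.6 and 48.1 CPM in DKO. Its groups overlapped as well, and the log2 difference was 0.35 (SE 0.15, unadjusted p 0.0382, adjusted p 0.278, edgeR), and 0.19 (SE 0.09, adjusted p 0.262) without control replicate 1.

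Per kilobase of exon, the 3 beta chains among the 10 genes were the most abundant of them. Itgb1 was at 1200 ± 160 counts per kilobase of exon, scaled to 1e6 counts, over controls and 1140 ± 91.8 over DKO libraries (SD, n = 4 and 5), Itgb2 at 725 ± 59.0 and 806 ± 31.0, and Itgb7 at 547 ± 38.1 and 643 ± 22.6. Among the 10 genes, the 7 alpha chains followed in the order Itgal (257 ± 71.2 and 276 ± 16.6), Itgax (103 ± 25.8 and 84.6 ± 5.47), Itga4 (56.3 ± 18.3 and 55.8 ± 4.70), Itgam (11.7 ± 3.64 and 7.55 ± 1.05), Itga1 (4.95 ± 1.05 and 6.01 ± 0.357), Itgav (4.05 ± 0.871 and 5.11 ± 0.452) and Itgae (2.14 ± 0.242 and 1.28 ± 0.194). This order of the 10 genes held within each of the 9 libraries. Of the other integrin subunits, Itga6 had a mean over libraries of 8.63 on this scale and Itgb3 of 3.47. Over all libraries, the ranges of Itgb2 and Itgb7, of Itgax and Itga4, and of Itga1 and Itgav overlapped, and those of the other neighbours in the order did not. The level of Itgam was 37.4 in control and 24.1 in DKO when only its exon bases that no other gene shares were taken as its length, which left its place unchanged.

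**Figure D5:**
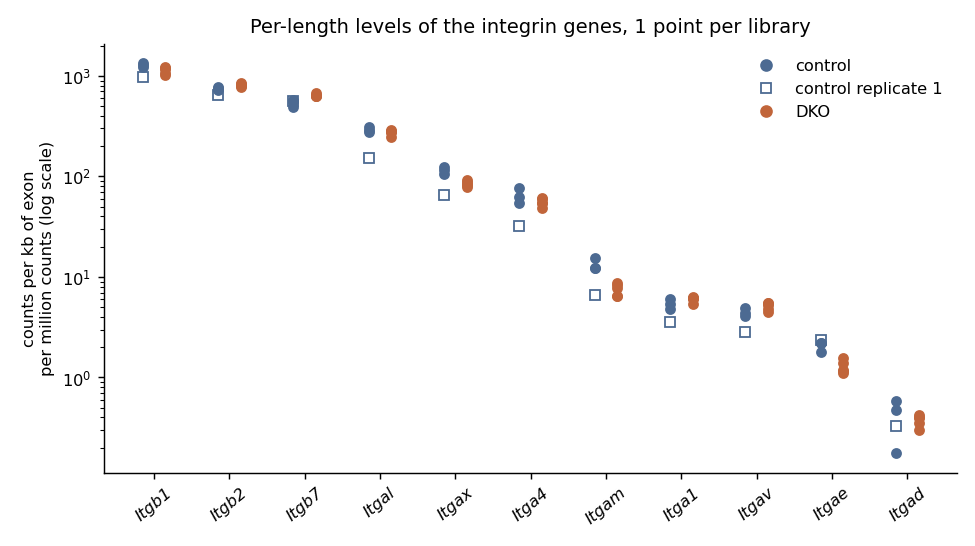
Counts per kilobase of exon, scaled to 1e6 counts in genes (y axis, log scale) of the 10 integrin genes and Itgad, 1 point per library, ordered by mean. The 3 beta chains are highest, Itgal leads the alpha chains and Itgae is the lowest of the 10.

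Among the other 16 integrin subunits, 10 were tested and 0 passed the threshold in edgeR, with 0 at an unadjusted p under 0.05 and 0 in DESeq2 or limma-voom. Their median log2 fold change was -0.10. Itga6, a laminin-receptor chain of naive and memory T cells, was at 71.8 and 82.7 CPM, and Itgb3, known from platelets, at 21.7 and 19.5 CPM. The smallest p-values were those of Itgb4 (0.443 and 0.285 CPM), Itga2b (6.84 and 11.1 CPM) and Itga2 (13.2 and 9.20 CPM), with an adjusted p of 0.468, 0.490 and 0.503 in edgeR.

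Integrins on T cells are switched on from inside, when Rap1 and its partners bring talin and kindlin to the beta chain's tail. Of 24 genes of this step, 22 were tested and 0 passed in edgeR; 4 higher and 1 lower in DKO had an unadjusted p under 0.05, as did 16% of all genes, and the median log2 fold change was 0.10. Fyb, the adaptor ADAP, was at 234 ± 20.7 CPM (controls) and 273 ± 3.90 CPM (DKO; SD, n = 4 and 5), a log2 difference of 0.24 (SE 0.08; adjusted p by edgeR 0.167). Rasgrp2, which encodes the Rap1 exchange factor CalDAG-GEFI, was at 418 ± 51.1 and 485 ± 24.1 CPM (adjusted p 0.238, edgeR). Apbb1ip, which encodes the Rap1 effector RIAM, was at 229 ± 14.8 and 200 ± 14.1 CPM (adjusted p 0.274, edgeR). The log2 fold changes of Fyb, Rasgrp2 and Apbb1ip were 0.24, 0.23 and -0.18 with all libraries. They were 0.15, 0.17 and -0.165 without control replicate 1. Tln1 (talin) and Fermt3 (kindlin-3) were at 798 and 940 CPM, and at 392 and 413 CPM.

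Downstream, adaptors and kinases tie the engaged integrin to actin. Of 26 such genes, 23 were tested and 0 passed in edgeR, with 2 higher and 1 lower at an unadjusted p under 0.05, where 16% of all genes were, and a median of 0.11. These 3 were Nedd9, a docking protein of the Cas family (242 ± 46.8 and 312 ± 16.3 CPM, log2 fold change 0.37, adjusted p 0.177, edgeR), and the alpha-actinins Actn1 (18.9 ± 2.42 and 15.2 ± 0.849 CPM, -0.30, adjusted p 0.232) and Actn4 (432 ± 58.4 and 516 ± 41.3 CPM, 0.26, adjusted p 0.258). Without control replicate 1, the log2 fold changes of Nedd9, Actn1 and Actn4 were 0.22, -0.41 and 0.16. In that fit Actn1 (adjusted p 0.0239, edgeR) and Dock2, a guanine exchange factor for Rac, were the 2 of all 61 tested list genes that passed. Both were lower in DKO in that fit, and 4.93% of all genes passed. With all libraries Dock2 was not lower in DKO, at 1400 ± 460 and 1430 ± 51.7 CPM (log2 fold change 0.035, adjusted p 0.956, edgeR). The focal adhesion kinase gene Ptk2 was nearly silent (0.266 and 0.168 CPM), and its relative Ptk2b was at 270.0 and 323 CPM.

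Of 19 genes of integrin ligands, 6 had enough counts to be tested. None passed in edgeR, 1 was lower at an unadjusted p under 0.05 (16% of all genes were under it), and the median log2 fold change was 0.22. That gene was Icam2, a ligand of LFA-1, at 103 ± 16.4 CPM (controls) and 85.8 ± 7.99 CPM (DKO; SD, n = 4 and 5), a log2 difference of -0.25 (SE 0.10; adjusted p by edgeR 0.257). Icam1 was at 181 and 188 CPM, Thbs1 at 3.68 and 6.66 CPM (adjusted p 0.468, edgeR) and Vcam1 at 2.04 and 2.80 CPM (adjusted p 0.689, edgeR). The log2 fold changes of Thbs1 and Vcam1 were 0.87 and 0.465. Without control replicate 1, those of Icam2, Thbs1 and Vcam1 were -0.17, 0.70 and 0.17. Over the 4 lists together, 0 of 61 tested genes passed in edgeR, where 2.83% of all genes did, and 0 in DESeq2, where 7.1% did. In limma-voom 3 passed (Actn1, Fyb and Nedd9), where 6.68% of all genes did.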

How the data were processed

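Gene counts of 9 libraries (4 control, 5 DKO) were analysed. The authors deposited raw counts per gene, with 1 file per library as STAR writes gene counts; the submitters' processing notes name Trim Galore 0.6.0, STAR 2.7.8a and mm10, and the annotation is not given in the sources used here. Libraries were made with SMART-Seq v4 and Nextera Flex, which do not mark strand, so the unstranded column was used. In this layout, reads that overlap 2 genes are counted for neither. Symbols, coordinates and exon lengths are from GENCODE M21 (GRCm38), in which 55230 of 55471 identifiers were found with the version dropped. Library sizes leave out the lines without a gene; genes held 67.0 to 74.0% of reads, unmapped reads were 10.3 to 16.7%. The test was the robust quasi-likelihood F-test of edgeR 4.0.16 (R 4.3.3; TMM, filterByExpr with a minimum count of 10 and total of 15), with Benjamini-Hochberg adjustment over all tested genes at 0.05. The SE is the log2 fold change divided by the square root of F. CPM uses the total counts in genes. No pair of libraries of 1 group agreed within sampling noise. DESeq2 1.42.0 and limma 3.58.1 were used as alternatives. The tests were tested on simulated data. Figures were drawn with matplotlib 3.10.9. The named genes were all members, both targeted genes, the 3 list genes with the smallest p or all past the threshold, the 3 genes most like a called member, and its neighbours; other genes were named after their values were seen. The members and lists were chosen with earlier results of these data known.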

Additional observations from a re-analysis of the deposited data

How the results depend on the processing

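Under the alternatives, 422 genes past the threshold became 1059 with DESeq2's Wald test, 996 with limma-voom and quality weights, and 179 to 749 when 1 library was left out (749 without control replicate 1, 187 without control replicate 4, and 179, 280, 180, 221 and 228 without DKO replicates 1 to 5). The 1 integrin gene past the threshold became 3 with DESeq2 (Itgae, Itgam and Itgb7), 4 with limma-voom (also Itgax), 3 without control replicates 1 and 3 together, 2 with a trend on gene length removed (Itgae and Itgb7; added after seeing the data), and 0 to 4 without 1 library: 4 without control replicate 1, and 0 in the fits lacking control replicate 2, control replicate 4, or DKO replicate 1, 2 or 4. The 0 pathway genes became 3 with limma-voom, 1 without control replicates 1 and 3 together, and 0 to 2 without 1 library. With the replicate number as a block, 67 genes and 0 integrin genes passed (Itgae adjusted p 0.155, edgeR). Same-numbered libraries did not deviate together (Pearson r -0.12 to 0.01 over genes). The labels do not say whether they share a donor or host, and this was not tested. The log2 fold change of Itgal was -0.037 with limma-voom, -0.14 without control replicates 1 and 3 together and -0.10 to 0.22 without 1 library; that of Itga4 was 0.11 with the replicate block and -0.22 to 0.17 without 1 library. The other 8 integrin genes kept their sign in all 18 alternatives, and the cause of these shifts was not tested. The order of the per-length levels was the same with the longest transcript, the strand columns or unshared exon bases. Itgae, with 258 to 583 counts per library, had the least depth.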
